A study of Mus musculus with 12 samples.

Results

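Prdm1, Irf4, Il10, Il1rl1, Areg, Pparg and Klrg1 are genes of the effector and tissue program of regulatory T cells (Tregs). Their open chromatin was described here from ATAC-seq peaks of sorted mouse CD4 T cells. ATAC-seq marks DNA that is open to a transposase. Peaks of 12 libraries were merged wherever they shared at least 1 bp. A merged region was taken as a member's when its midpoint lay in the gene body or, outside gene bodies, nearest to that gene's end within 50 kb. These were 67 of 76882 regions, with 13 at Prdm1, 10 at Irf4, 10 at Il10, 13 at Il1rl1, 3 at Areg, 8 at Pparg and 10 at Klrg1. They were 150 to 4688 bp wide with a median of 543 bp, against a median of 461 bp over all regions. In 29 of them the midpoint lay in the gene body, and 9 had a peak in 1 library.

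The 6 groups had 2 libraries each, all labelled Balb/c. The study followed CD4 T cells with the 6.5TCR, a receptor specific for HA, after transfer into Aire-HA hosts, and bone marrow was sorted at 14 days. Donor Tregs were donor cells that had converted (CD45.1-CD45.2+CD25+LAP+, where LAP is the latency peptide of TGF-beta). Host pTregs and host tTregs were CD45.1+CD45.2+CD25+CTLA4+ cells without and with Nrp1, a surface protein often used to set thymic Tregs apart. The iTregs were induced in vitro and sorted as CD25+LAP+, from wild-type Balb/c cells by their library names; the sources used here do not give the culture conditions. Donor Tconv were unconverted donor cells (CD45.1-CD45.2+CD25-), and host Tconv were titled wild type, with Aire-HCO in their library names (CD45.1+CD45.2-CD25-). The labels describe neither transgene further. All groups were sorted on CD3 and CD4, and none on a product of the 7 genes. The age of the mice, and whether the 2 libraries of a group came from separate animals, are not stated, so p-values measure only the spread between these libraries, which may be technical. Below, in vivo regulatory libraries are the 6 of donor Treg, host pTreg and host tTreg, and regulatory libraries are these and the 2 of iTreg.

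Effector Tregs are activated Tregs that leave lymphoid organs, and tissue Tregs are their descendants in organs such as fat, gut and skin. IRF4 and Blimp-1, the product of Prdm1, are transcription factors of the effector state and act on Il10, the gene of the suppressive cytokine IL-10. PPAR-gamma, the product of Pparg, is a nuclear receptor known for its role in Tregs of visceral fat. Il1rl1 encodes ST2, the receptor for the alarmin IL-33, and Areg encodes amphiregulin, an epidermal growth factor receptor ligand by which Tregs take part in tissue repair. Klrg1 encodes an inhibitory receptor for cadherins that marks terminally differentiated effector cells.

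The lists held 28394 to 63207 peaks, most in the 2 iTreg libraries, and the reads behind a list are unknown. A missing peak is thus not a measure of closed chromatin. The narrowest peak was 150 bp in every list, so widths of 150 bp given below sit at this floor. In a bulk library, fewer cells with an open region and less access per cell cannot be told apart. The run codes in the library names are BW13 for donor Treg, donor Tconv and host Tconv and DR31 for host pTreg and host tTreg, with none for iTreg. A number in the names is at most 17000 for in vivo regulatory libraries and 42000 to 50000 for iTreg and conventional ones. Groups with the same code, donor Treg, donor Tconv and host Tconv, or host pTreg and host tTreg, were compared within a run; in all other comparisons the groups cannot be told apart from the run, and in vivo regulatory cannot be told apart from this number anywhere. All 6 CD4 T cell markers (Cd3e, Cd3g, Cd4, Cd5, Lck, Themis) had peaks in every group. Of 5 Treg markers (Foxp3, Il2ra, Ctla4, Ikzf2, Lrrc32), 2 encode sorted proteins, and all 5 had peaks in every group. Their summed covered length was 38942 to 41426 bp in donor Treg, 33565 to 41619 bp in host pTreg, 29094 to 44738 bp in host tTreg and 33548 to 37227 bp in iTreg, against 19356 to 22630 bp in donor Tconv and 10813 to 18660 bp in host Tconv. Single markers differed in their number of regions with a peak. Foxp3 had 1 or 2 in regulatory and 2 or 3 in conventional libraries, and Ctla4 had 9 to 12 in both. Il2ra had 7 to 10 in regulatory and 6 in conventional libraries, and Lrrc32 had 4 to 7 and 2 or 3. Ikzf2 had 19 to 26 in in vivo regulatory libraries, 9 and 11 in iTreg and 6 to 14 in conventional ones.

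The 250 bases upstream of an annotated start are shown for 4 members whose promoters differed in how the groups' peaks covered them, or, for Prdm1, did not. They were taken from RefSeq (GRCm38.p6, the coordinates of mm10), where 5 of the 7 members had an entry, 8 starts in all. Il1rl1 had another start with no peak over its 250 bases in any library, and Pparg had 2 such starts. Each reads 5′ to 3′ on the strand of the gene, and capitals mark matches to the motifs named afterwards.

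Areg, chr5:91139349-91139598, plus strand: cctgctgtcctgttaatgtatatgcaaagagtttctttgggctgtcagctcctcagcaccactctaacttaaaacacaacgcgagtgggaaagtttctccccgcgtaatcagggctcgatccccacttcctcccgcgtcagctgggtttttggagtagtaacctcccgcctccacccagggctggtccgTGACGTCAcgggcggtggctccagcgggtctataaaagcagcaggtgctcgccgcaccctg
Il1rl1, chr1:40429320-40429569, plus strand: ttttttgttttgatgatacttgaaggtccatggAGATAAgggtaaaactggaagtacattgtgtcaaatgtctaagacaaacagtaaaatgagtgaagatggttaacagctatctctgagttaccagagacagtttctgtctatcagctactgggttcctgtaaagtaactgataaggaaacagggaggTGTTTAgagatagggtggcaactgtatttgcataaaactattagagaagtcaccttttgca
Prdm1, chr10:44458749-44458998, minus strand: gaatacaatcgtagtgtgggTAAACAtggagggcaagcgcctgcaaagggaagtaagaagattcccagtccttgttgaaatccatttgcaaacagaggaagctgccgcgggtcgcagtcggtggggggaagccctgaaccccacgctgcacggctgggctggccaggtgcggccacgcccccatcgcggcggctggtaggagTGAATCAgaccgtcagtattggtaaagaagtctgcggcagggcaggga
Pparg, chr6:115360894-115361143, plus strand: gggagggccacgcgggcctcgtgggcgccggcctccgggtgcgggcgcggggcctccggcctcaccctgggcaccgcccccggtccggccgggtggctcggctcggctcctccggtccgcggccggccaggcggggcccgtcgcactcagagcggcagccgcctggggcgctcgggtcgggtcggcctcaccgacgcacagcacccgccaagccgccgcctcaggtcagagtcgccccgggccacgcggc

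All 250 bases of the Areg promoter lay in a peak in the 8 regulatory libraries, against 214 and 219 bases in donor Tconv and 0 and 150 bases in host Tconv. The Il1rl1 promoter shown lay wholly in a peak in donor Treg 2, host pTreg 1, host pTreg 2 and host tTreg 1, and had no base in a peak in the other 8 libraries. The Prdm1 promoter was covered over all 250 bases in all 12 libraries, as was that of Irf4. At the Pparg promoter shown, 44 and 95 bases were in a peak in iTreg and none in the other 10 libraries. A set of 6 motifs was searched on both strands of 32817 promoters, and the matches shown do not overlap. The cyclic AMP response element (CRE, TGACGTCA) was found in the Areg promoter with its first base 61 bases before the start, and 1.55% of promoters of this length held it. The AP-1 motif (TGANTCA) was found in the Prdm1 promoter at -48, and 6.75% of promoters held it. The GATA motif (AGATAA, 9.99% of promoters) was found in the Il1rl1 promoter at -217. The forkhead motif (TGTTTA, 12% of promoters) was found at -61 in the Il1rl1 promoter and at -230 in the Prdm1 promoter. The Runx motif (TGTGGT, 14% of promoters) and an ETS-IRF composite (GGAA and GAAA, 2 bases apart, 2.3% of promoters) were in none of the 4 windows, and the Pparg window held none of the 6. At the other Il1rl1 start, not shown, a Runx match lay at -6, a GATA match at -103 and forkhead matches at -116 and -106; the matches at -106 and -103 overlap. A further Pparg start held a forkhead match at -120.

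Il10, Areg, Il1rl1 and Klrg1, 4 of the 7 genes, were covered by peaks over more base pairs in in vivo regulatory than in conventional T cells once iTreg was set aside, and Prdm1, Irf4 and Pparg did not pass this test. Peaks at 2 regions within the Il1rl1 gene, 1 upstream of Areg and 2 at Klrg1 were found in all 6 in vivo regulatory libraries and in none of the other 6. The 2 iTreg libraries had the longest lists, yet lacked peaks at most Klrg1 regions and at 3 Il10 regions that all 10 other libraries had. The members had a peak at 36 and 42 of 67 regions in donor Treg, 45 and 43 in host pTreg, 37 and 51 in host tTreg and 30 and 36 in iTreg, against 35 and 34 in donor Tconv and 22 and 30 in host Tconv. Over all 76882 regions the order differed. There iTreg had peaks at 74.8% and 81.5%, in vivo regulatory libraries at 35.1% to 47.8% and conventional libraries at 46.4% to 60.4%.

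**Figure D1:**
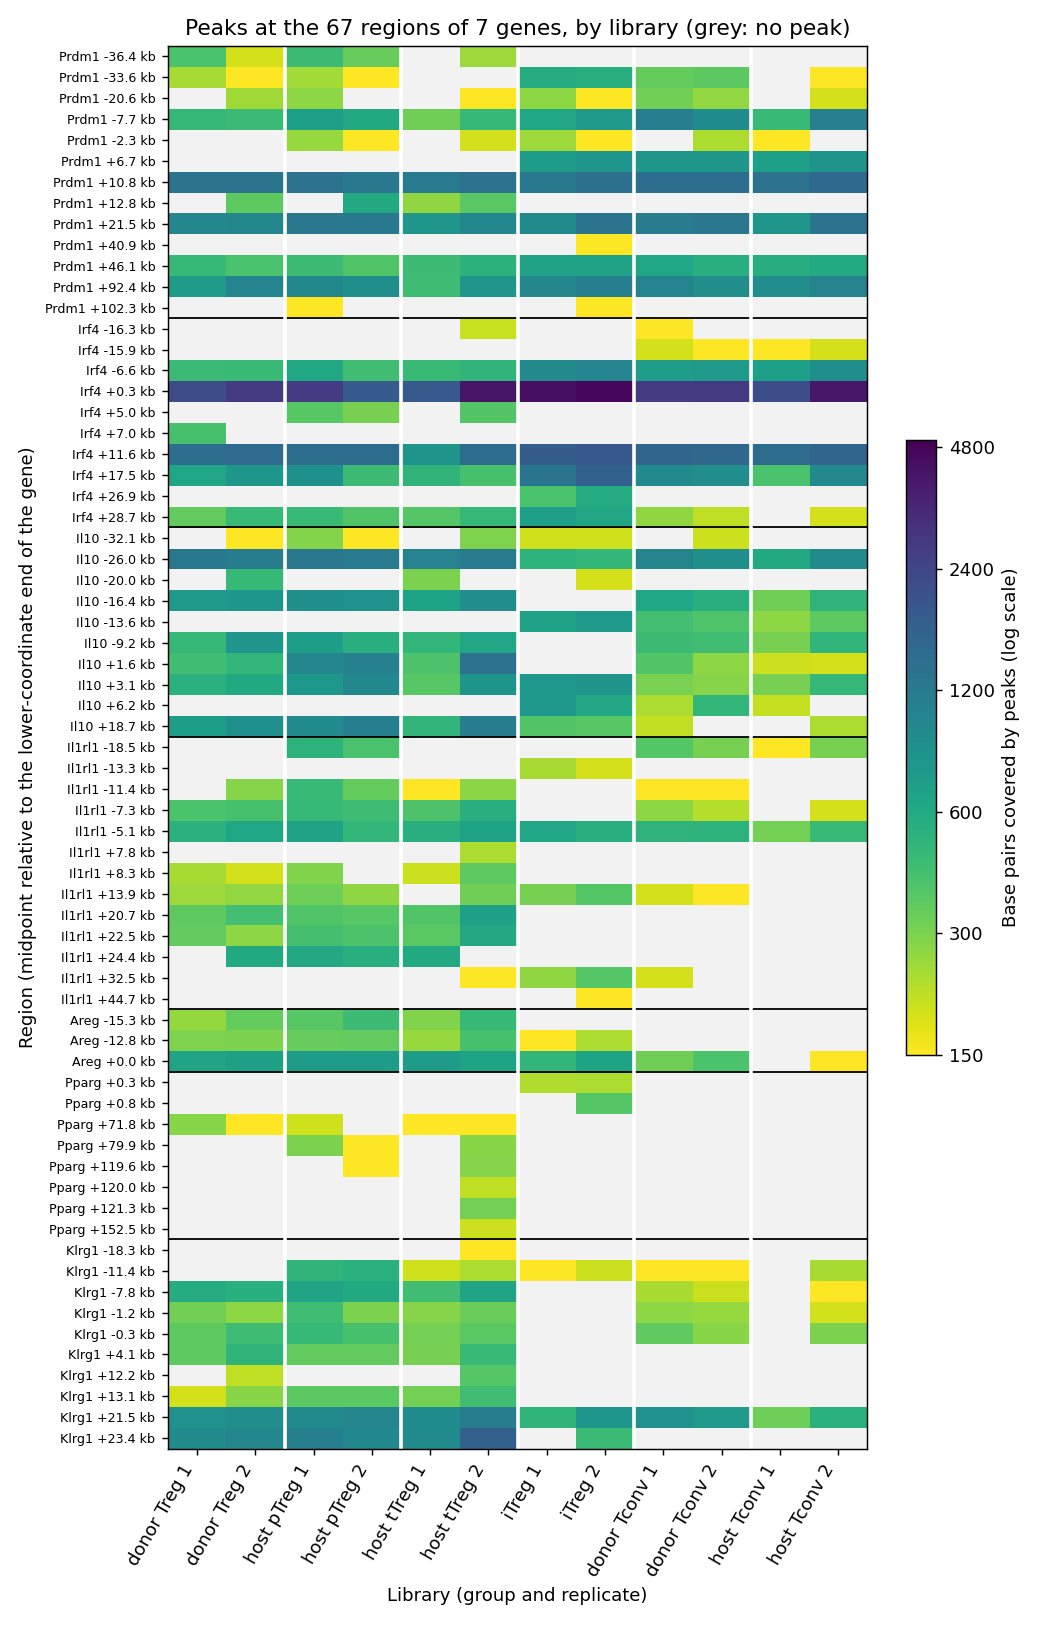
Base pairs covered by a peak at each of the 67 member regions (rows, grouped by gene, with the distance of the midpoint from the gene's lower coordinate in kb) in each of the 12 libraries (columns, regulatory groups left of conventional groups). Grey cells have no peak: 5 rows are filled in the 6 in vivo regulatory libraries alone, and 13 rows are filled in all 12 libraries.

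Covered length, the number of base pairs of a gene's regions that lie in peaks, was compared first between the 8 regulatory and 4 conventional libraries, taking all 495 splits in an exact permutation test (two-sided). No gene of 15870 passed a Benjamini-Hochberg adjusted p of 0.05, so 0% were called in either direction. An unadjusted p under 0.05 was found for 1652 genes, and the smallest adjusted p was 0.142. A comparison without iTreg set 6 in vivo regulatory against 4 conventional libraries. Of 14450 genes, 1.3% were then called higher in in vivo regulatory libraries and 37% higher in conventional libraries. The median difference over all genes was -260.1 bp, in vivo regulatory minus conventional. Of the 7 members 4 were called higher in in vivo regulatory libraries and 0 higher in conventional ones, where Prdm1 was called once host Tconv 1 was left out. None of the 4 genes passed without donor Tconv 1, donor Tconv 2 or host Tconv 2, and 2 or 3 passed without each of the other 7 libraries. Leaving out a library also raised the smallest p the test could give. Without any 1 conventional library the exact permutation p of Il1rl1, Areg and Klrg1 was 0.0119, the smallest possible. Their calls there were thus kept or lost by the adjustment alone. That of Il10 was 0.0238 to 0.0476. All 4 differences stayed positive without any 1 library.

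Prdm1 (chr10:44437174-44528558, mm10) was covered over 4618 and 5142 bp in donor Treg, 6087 and 5520 bp in host pTreg, 3489 and 5077 bp in host tTreg and 6257 and 7123 bp in iTreg, against 6768 and 6646 bp in donor Tconv and 4924 and 6716 bp in host Tconv. The groups overlapped. Means were 5414 ± 1109.8 bp in regulatory libraries (SD, n = 8) and 6264 ± 894 bp in conventional libraries (SD, n = 4), a difference of -849 bp (exact permutation p = 0.228, adjusted p = 0.759). Without iTreg the difference was -1275 bp (exact permutation adjusted p = 0.109). Host Tconv 1 decided this: without it the differences were -1296 bp with iTreg (exact permutation adjusted p = 0.452) and -1721 bp without iTreg (exact permutation adjusted p = 0.0448), a call higher in conventional libraries. As a share of each library's covered base pairs it turned positive in both comparisons, and neither value passed the test.

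Single Prdm1 regions differed in both directions. Distances are from the lower coordinate of the gene to the middle of the region, negative below it. The region at 6.7 kb, inside the gene (chr10:44443394-44444347), had no peak in the 6 in vivo regulatory libraries. It was covered over 723 and 797 bp in iTreg, 786 and 778 bp in donor Tconv and 691 and 817 bp in host Tconv. In contrast, the region at -36.4 kb (chr10:44400503-44401071) had peaks of 411 and 189 bp in donor Treg, 450 and 340 bp in host pTreg and 0 and 249 bp in host tTreg, and none in iTreg, donor Tconv or host Tconv. A region at 12.8 kb had a peak in donor Treg 2, host pTreg 2 and both host tTreg libraries only. At -33.6 kb both host pTreg libraries had a peak (245 and 150 bp) and neither host tTreg library did, while donor Treg (236 and 150 bp), iTreg (568 and 553 bp), donor Tconv (344 and 364 bp) and host Tconv 2 (150 bp) also did. At -2.3 kb host pTreg and iTreg had peaks in both libraries, host tTreg, donor Tconv and host Tconv in 1 each and donor Treg in neither. The other regions included 5 with a peak in all 12 libraries, among them the promoter region and the widest, at 10.8 kb, covered over 1199 to 1344 bp in in vivo regulatory, 1214 and 1364 bp in iTreg and 1358 to 1517 bp in conventional libraries.

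Irf4 (chr13:30749233-30766981) was covered over 5528 and 5950 bp in donor Treg, 6406 and 4849 bp in host pTreg, 4050 and 7537 bp in host tTreg and 9402 and 10544 bp in iTreg, against 6549 and 6311 bp in donor Tconv and 4883 and 7762 bp in host Tconv. Both iTreg libraries lay above the other 10, which overlapped. The regulatory mean was 6783 ± 2242 bp (SD, n = 8) and the conventional mean 6376 ± 1181 bp (SD, n = 4), 407 bp apart (exact permutation p = 0.745, adjusted p = 0.978). Without iTreg the difference was -656 bp (exact permutation adjusted p = 0.474), so the sign rested on iTreg, and as a share of covered base pairs it was again positive (exact permutation adjusted p = 0.0533). It was also negative without iTreg 2 alone (-130.2 bp) or host Tconv 1 alone (-90.8 bp).

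A narrow region below Irf4, at -15.9 kb (chr13:30733215-30733416) had a peak in each conventional library, of 190 and 150 bp in donor Tconv and 150 and 188 bp in host Tconv, and in none of the 8 regulatory libraries. It passed a two-sided Fisher's exact test among 18887 regions where an unadjusted p under 0.05 was possible (p = 0.00202, adjusted p = 0.0317). The call was lost with equal list lengths, under a replicate block, when adjusted over all merged regions and without any 1 of 9 libraries. Except with equal list lengths, no region of any gene was called at these settings, so those losses say nothing particular about this region. Of the regions tested 4.98% were called higher in conventional libraries, and of the 24 member regions tested this was the only one. At 5 kb both host pTreg libraries (371 and 306 bp) and host tTreg 2 (381 bp) had a peak and no other library did. At 26.9 kb only iTreg had peaks (403 and 576 bp). The widest member region lay across the lower end of Irf4, covered over 2250 and 2763 bp in donor Treg, 2670 and 1823 bp in host pTreg, 1878 and 4102 bp in host tTreg and 4302 and 4688 bp in iTreg, against 2701 and 2738 bp in donor Tconv and 2189 and 3968 bp in host Tconv. The region at the upper end had a peak in all 12 libraries, widest in iTreg (1284 and 1686 bp, against 410 to 954 bp elsewhere).

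Pparg (chr6:115360879-115490404) had the least covered length of the 7 genes in in vivo regulatory libraries. It was covered over 278 and 150 bp in donor Treg, 493 and 300 bp in host pTreg, 150 and 1429 bp in host tTreg and 229 and 607 bp in iTreg, and over 0 bp in all 4 conventional libraries. The groups did not overlap, with regulatory libraries at 454 ± 425 bp (SD, n = 8) and an exact permutation p of 0.0404 (adjusted p = 0.447). Without iTreg the mean was 467 ± 488 bp (SD, n = 6) and the exact permutation adjusted p was 0.0647. Host tTreg 2 stood apart, with a peak at 6 of the 8 Pparg regions. Of these, 3, at 120, 121 and 152 kb, were in that library alone, and that at 119.6 kb was shared with host pTreg 2. Without host tTreg 2 the difference of 454 bp between regulatory and conventional libraries was 315 bp, and that of 467 bp without iTreg was 274 bp. With equal list lengths the differences were 200.2 bp with iTreg (exact permutation p = 0.305) and 267 bp without (exact permutation p = 0.162).

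The region shared most widely at Pparg was at 71.8 kb inside the gene (chr6:115432548-115432858), with 278 and 150 bp in donor Treg, 192 and 0 bp in host pTreg, 150 and 150 bp in host tTreg and none in iTreg or conventional libraries. At 79.9 kb host pTreg had 301 and 150 bp and host tTreg 2 had 278 bp. The region over the lower end of the gene had 229 and 230 bp in iTreg only, and iTreg 2 had a further peak at 0.8 kb. In vivo regulatory and iTreg libraries thus shared no Pparg region.

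**Figure D2:**
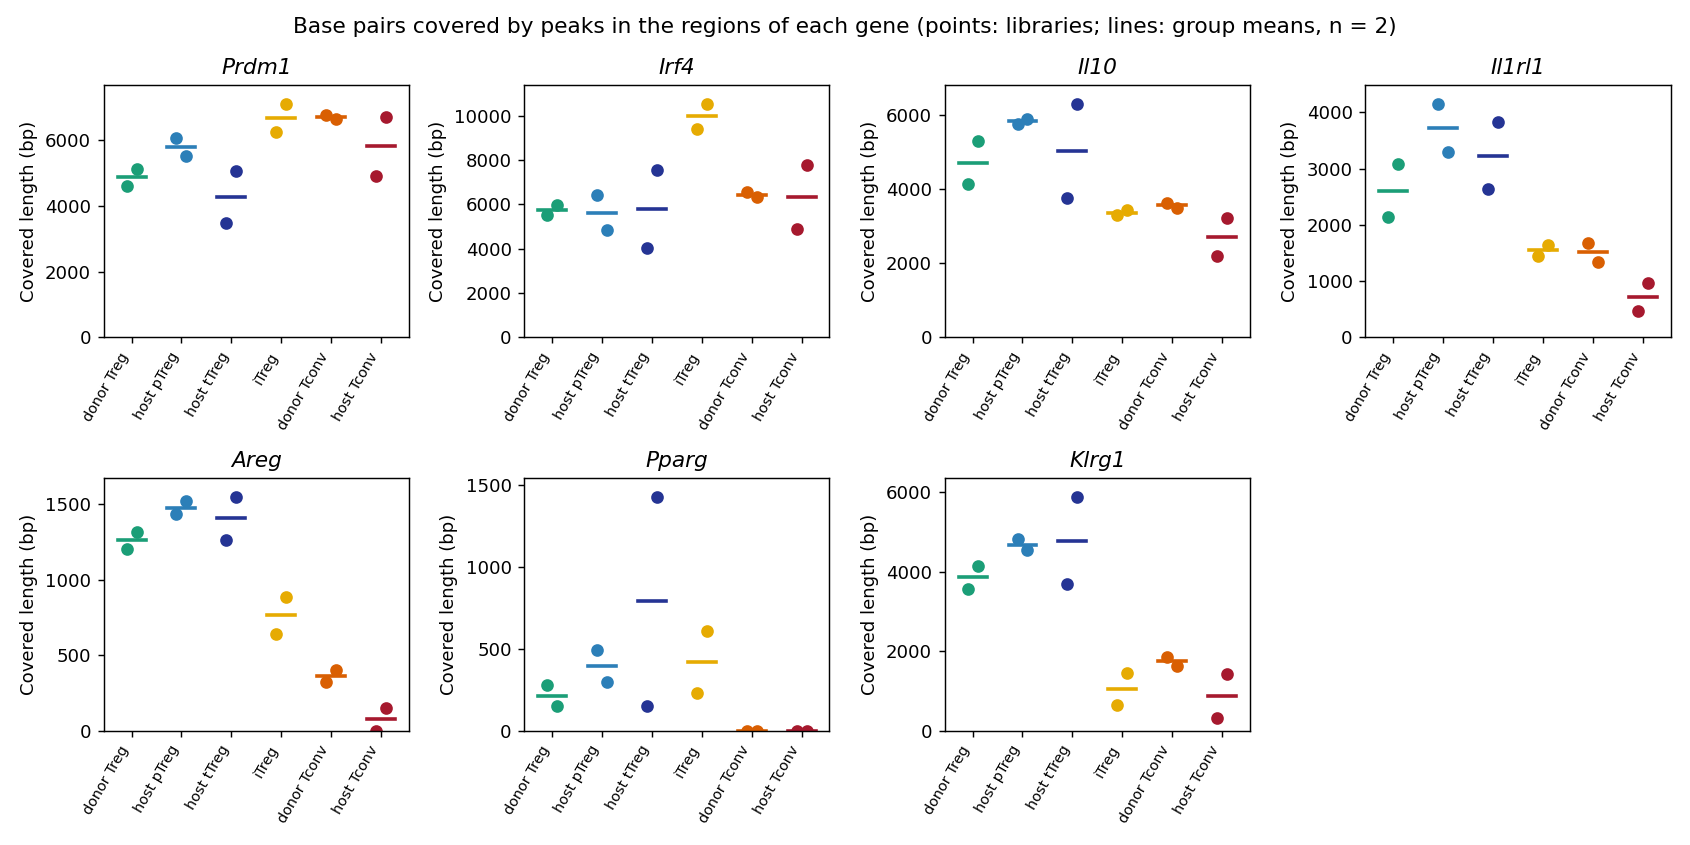
Base pairs covered by peaks in the regions of each of the 7 genes (vertical axes, linear, each starting at 0) in each library (points; lines are group means, n = 2, regulatory groups left of conventional groups). Areg in in vivo regulatory libraries sits at 1206 to 1550 bp and in conventional libraries at 0 to 403 bp, while the groups overlap at Prdm1 and iTreg stands above the other groups at Irf4.

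Il10 (chr1:131019845-131024970) was covered over 4128 and 5304 bp in donor Treg, 5771 and 5892 bp in host pTreg, 3769 and 6309 bp in host tTreg and 3301 and 3431 bp in iTreg, against 3638 and 3495 bp in donor Tconv and 2208 and 3214 bp in host Tconv. All 6 in vivo regulatory libraries lay above all conventional ones, and iTreg lay within the conventional range. Against conventional libraries the difference was 1599 bp with iTreg (exact permutation p = 0.0444, adjusted p = 0.46) and 2057 bp without (5196 ± 1024 bp, SD, n = 6, against 3139 ± 645 bp, SD, n = 4; exact permutation p = 0.00952, adjusted p = 0.0329). The last call ended when any 1 library was left out, with adjusted p from 0.0546 to 0.08. Il10 lies 7.04 Mb from Ptprc, the CD45 gene whose alleles set donor and host cells apart in the sort. The part of this linkage in the Il10 values was not tested.

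The in vivo regulatory libraries did not have more Il10 regions than conventional ones, with 6 to 8 in in vivo regulatory and 7 to 8 in conventional libraries. At 4 of them, at -26, -16.4, 1.6 and 18.7 kb, each in vivo regulatory library was covered over more base pairs than each conventional one. At -26, -16.4 and 1.6 kb the lowest in vivo regulatory library, host tTreg 1, had 1061, 652 and 397 bp. The highest conventional library, donor Tconv 1, had 1012, 624 and 382 bp there. At -13.6 kb each conventional library was covered over more base pairs than each in vivo regulatory one. The share of all regions with either pattern is not given here. The region 1.6 kb into the gene (chr1:131020604-131022325), the widest, was covered over 440 and 492 bp in donor Treg, 983 and 1090 bp in host pTreg, 397 and 1325 bp in host tTreg and 0 bp in both iTreg libraries, against 382 and 272 bp in donor Tconv and 197 and 188 bp in host Tconv. At 18.7 kb in vivo regulatory libraries had 497 to 1147 bp and iTreg 387 and 371 bp, against 208 and 0 bp in donor Tconv and 0 and 232 bp in host Tconv.

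At Il10 iTreg had another set of peaks. Regions at -16.4, -9.2 and 1.6 kb, 3 in all, had a peak in all 10 other libraries and in neither iTreg library, a pattern found at 0.636% of all regions. At -13.6 kb (chr1:131005817-131006576) iTreg had 666 and 760 bp, donor Tconv 426 and 393 bp and host Tconv 273 and 359 bp, and no in vivo regulatory library had a peak. The Prdm1 region at 6.7 kb was the other member with this pattern, which 3.21% of all regions had. At 6.2 kb, 1081 bp past the gene, iTreg had 769 and 622 bp, donor Tconv 232 and 490 bp and host Tconv 205 and 0 bp, again with no in vivo regulatory peak. At -32.1 kb donor Treg had 0 and 150 bp, host pTreg 286 and 150 bp, host tTreg 0 and 294 bp and iTreg 193 and 192 bp, against 0 and 195 bp in donor Tconv and 0 bp in both host Tconv libraries.

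Areg (chr5:91139599-91148432) had 3 regions, all with their midpoint outside the gene body. It was covered over 1206 and 1320 bp in donor Treg, 1434 and 1523 bp in host pTreg, 1267 and 1550 bp in host tTreg and 644 and 884 bp in iTreg, against 322 and 403 bp in donor Tconv and 0 and 150 bp in host Tconv. All 8 regulatory libraries lay above all 4 conventional ones, and iTreg lay between the in vivo regulatory and conventional libraries. Regulatory libraries averaged 1228 ± 317 bp (SD, n = 8) and conventional libraries 219 ± 180.0 bp (SD, n = 4), with an exact permutation p of 0.00202, the smallest the design gives (adjusted p = 0.142). Without iTreg the regulatory mean was 1383 ± 141 bp (SD, n = 6) and the difference 1165 bp (exact permutation adjusted p = 0.0222).

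The Areg region at -12.8 kb (chr5:91126636-91127055) had a peak in all 8 regulatory libraries, of 296 and 298 bp in donor Treg, 338 and 347 bp in host pTreg, 257 and 417 bp in host tTreg and 150 and 230 bp in iTreg, and in no conventional library. It passed the Fisher's exact test (p = 0.00202, adjusted p = 0.0317), as did 1.39% of tested regions in this direction. The call was lost when peaks had to cover 50% of the region, under a replicate block, when adjusted over all merged regions and without any 1 of 9 libraries, that is all but host Tconv 1, iTreg 1 and iTreg 2. Except with 50% cover, no region of any gene was called at these settings, so those losses say nothing particular about this region. The neighbour at -15.3 kb (chr5:91124050-91124586) had 263 and 342 bp in donor Treg, 374 and 453 bp in host pTreg and 293 and 476 bp in host tTreg, with no peak in iTreg or the conventional libraries. The third region, over the promoter shown above, had 647 to 723 bp in in vivo regulatory libraries, 494 and 654 bp in iTreg, 322 and 403 bp in donor Tconv and 0 and 150 bp in host Tconv.

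**Figure D3:**
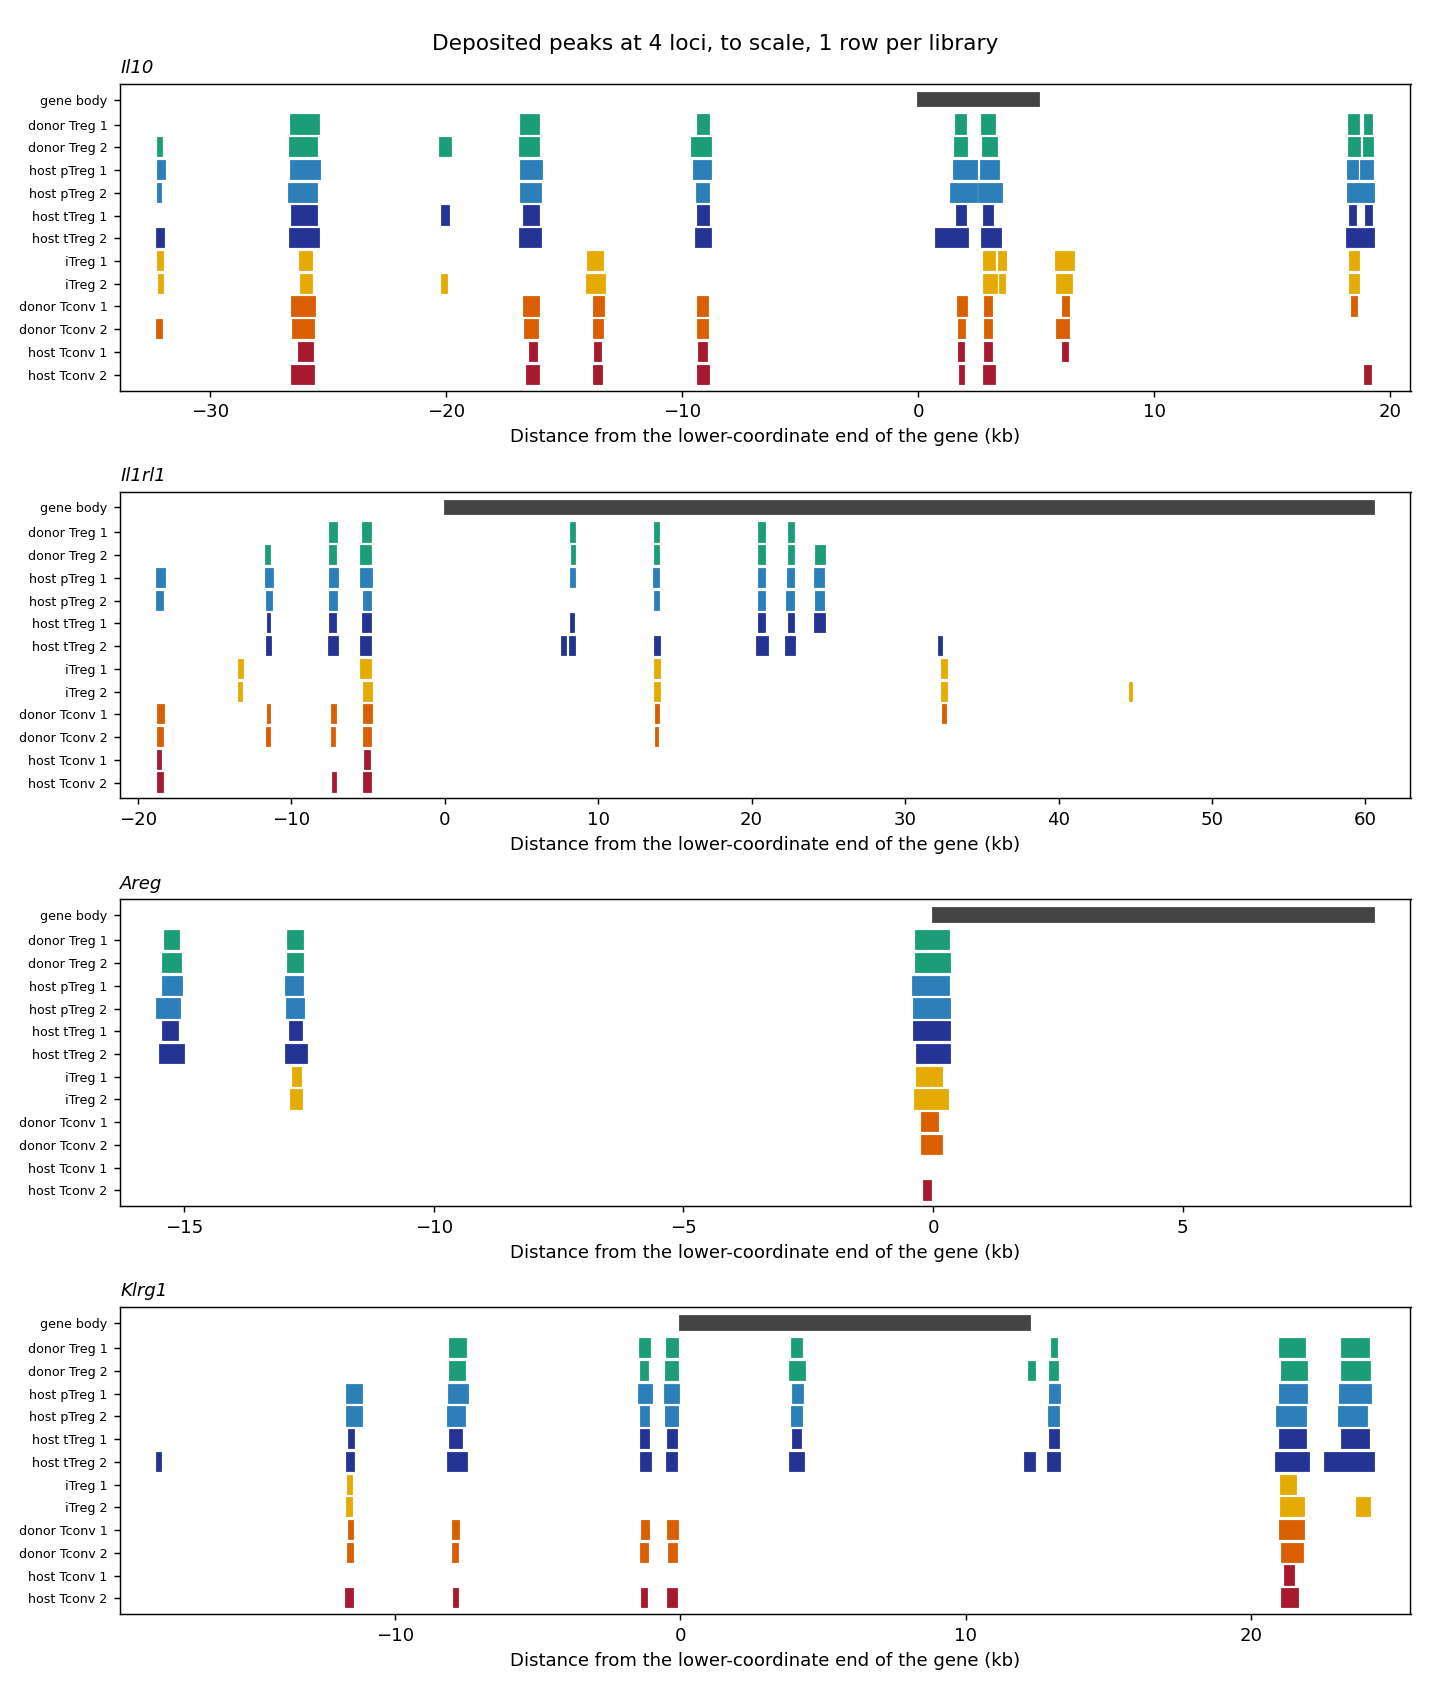
Peaks of each library drawn along distance from the lower coordinate of Il10, Il1rl1, Areg and Klrg1 in kb (horizontal axis; the gene body is the dark bar at the top; rows are libraries, regulatory groups above conventional groups). The Areg peaks at -15.3 and -12.8 kb are present in all in vivo regulatory rows and absent from the conventional rows, and the iTreg rows at Klrg1 hold peaks at 2 and 3 of the 10 regions.

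Il1rl1 (chr1:40404864-40465418) was covered over 2136 and 3080 bp in donor Treg, 4156 and 3290 bp in host pTreg, 2642 and 3822 bp in host tTreg and 1448 and 1651 bp in iTreg, against 1684 and 1347 bp in donor Tconv and 464 and 965 bp in host Tconv. The in vivo regulatory libraries lay above all others, and iTreg overlapped donor Tconv. With iTreg the difference was 1663 bp (exact permutation p = 0.0141, adjusted p = 0.303). Without iTreg it was 2073 bp (3188 ± 744 bp, SD, n = 6, against 1115 ± 524 bp, SD, n = 4; exact permutation adjusted p = 0.0222). The adjusted p was 0.0271 to 0.0436 without donor Treg 1, host pTreg 1 or host Tconv 1, each left out alone, and 0.0505 to 0.0574 without any of the other 7 libraries.

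Inside Il1rl1, peaks at several regions were found in in vivo regulatory libraries alone. At 20.7 kb (chr1:40425240-40425910) the peaks were 357 and 427 bp in donor Treg, 389 and 373 bp in host pTreg and 388 and 671 bp in host tTreg. At 22.5 kb (chr1:40427106-40427711) they were 350 and 271 bp in donor Treg, 423 and 400 bp in host pTreg and 367 and 606 bp in host tTreg. At neither had iTreg or a conventional library a peak. The region over the promoter shown above, at 24.4 kb, had 0 and 592 bp in donor Treg, 601 and 558 bp in host pTreg and 592 and 0 bp in host tTreg, so that the replicates disagreed. At 8.3 kb both donor Treg and both host tTreg libraries and host pTreg 1 had a peak, of 191 to 357 bp, and no iTreg or conventional library did. At 13.9 kb donor Treg had 252 and 265 bp, host pTreg 325 and 267 bp, host tTreg 0 and 323 bp and iTreg 310 and 380 bp, against 190 and 150 bp in donor Tconv and 0 bp in both host Tconv libraries.

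Below Il1rl1 the pattern was more mixed. The widest region, at -5.1 kb, had a peak in all 12 libraries, of 490 to 666 bp in in vivo regulatory, 631 and 556 bp in iTreg and 314 to 519 bp in conventional libraries. At -7.3 kb all in vivo regulatory libraries had 399 to 557 bp, iTreg none, donor Tconv 271 and 222 bp and host Tconv 0 and 189 bp. At -11.4 kb host pTreg (462 and 344 bp) and host tTreg (150 and 275 bp) had peaks and host Tconv none, while donor Treg had 0 and 285 bp and donor Tconv 150 bp in each library. At -18.5 kb host pTreg had 519 and 410 bp, donor Tconv 376 and 306 bp and host Tconv 150 and 309 bp, with none in donor Treg, host tTreg or iTreg. At -13.3 kb only iTreg had peaks (238 and 189 bp). Inside the gene, at 32.5 kb, iTreg had 269 and 376 bp, host tTreg 2 had 150 bp and donor Tconv 1 had 188 bp.

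Klrg1 (chr6:122270596-122282833) was covered over 3569 and 4138 bp in donor Treg, 4821 and 4539 bp in host pTreg, 3676 and 5879 bp in host tTreg and 657 and 1444 bp in iTreg, against 1861 and 1635 bp in donor Tconv and 325 and 1415 bp in host Tconv. All in vivo regulatory libraries lay above the other 6, and iTreg lay within the range of conventional libraries. With iTreg the difference was 2281 bp (exact permutation p = 0.0384, adjusted p = 0.436). Without iTreg it was 3128 bp (4437 ± 855 bp, SD, n = 6, against 1309 ± 681 bp, SD, n = 4; exact permutation adjusted p = 0.0222). Like Areg, Klrg1 lost its call without donor Tconv 1, donor Tconv 2 or host Tconv 2 (exact permutation adjusted p = 0.0505 to 0.0539) and kept it without each of the other 7. Without any 1 conventional library the exact permutation p of both genes was 0.0119, the smallest possible.

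The widest Klrg1 region, 23.4 kb from the lower coordinate and past the gene (chr6:122293187-122294896), was covered over 926 and 996 bp in donor Treg, 1104 and 967 bp in host pTreg, 921 and 1710 bp in host tTreg and 0 and 458 bp in iTreg, and over 0 bp in the conventional libraries. Its neighbour at 21.5 kb had a peak in all 12 libraries. At 4.1 kb, inside the gene (chr6:122274443-122274947), donor Treg had 359 and 502 bp, host pTreg 348 and 347 bp and host tTreg 307 and 465 bp. At 13.1 kb, 854 bp past the gene (chr6:122283466-122283907), donor Treg had 187 and 278 bp, host pTreg 363 and 364 bp and host tTreg 311 and 442 bp. No iTreg or conventional library had a peak at either of these.

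A further 3 regions, at -7.8, -1.2 and -0.3 kb, had a peak in all 6 in vivo regulatory libraries, both donor Tconv libraries and host Tconv 2, and in neither iTreg library. Peaks at -7.8 kb were 570 and 538 bp in donor Treg, 646 and 591 bp in host pTreg and 439 and 648 bp in host tTreg, against 233 and 198 bp in donor Tconv and 0 and 150 bp in host Tconv. At -0.3 kb, next to the gene's lower end, they were 313 to 477 bp in in vivo regulatory libraries, 352 and 278 bp in donor Tconv and 0 and 300 bp in host Tconv. At -11.4 kb donor Treg had none and each other group had at least 1 peak, of 505 and 533 bp in host pTreg and 150 to 238 bp where a conventional library had one. A region across the upper end had a peak in donor Treg 2 (210 bp) and host tTreg 2 (379 bp) only.

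Converted donor cells were next set against unconverted ones, which share the 6.5TCR, the transfer and the run code. The 7 genes, and the related genes listed later, were chosen with earlier results of these data known. The part of this choice in the shares given here and below was not tested. Of 52 member regions, 10 (19.2%) had peaks in donor Treg 1 and 2 and none in donor Tconv, against 2.41% of all 50938 regions with a peak in either group. They were 3 at Il1rl1, 3 at Klrg1, 2 at Areg, 1 at Pparg and 1 at Prdm1. The opposite pattern, peaks in donor Tconv 1 and 2 and none in donor Treg, was found at 6 (11.5%), against 19.9% of all regions, 2 at Il10 and 1 each at Prdm1, Irf4, Il1rl1 and Klrg1. With 2 libraries against 2 an exact test cannot go below p = 0.333, so no test is given. The same 10 regions had no peak in host Tconv either. Over all regions, 1122 of the 1230 with peaks in both donor Treg and neither donor Tconv library also had none there. Peaks in both donor Treg and none of the 4 conventional libraries were thus found at 14.9% of the 67 member regions and 1.46% of all 76882. Within BW13, both donor Treg libraries were covered over more base pairs than all 4 conventional libraries at Il10, Il1rl1, Areg, Pparg and Klrg1, 5 of the 7 genes, against 2.82% of 14234 genes. None of the 7 had both donor Treg libraries below all 4, against 41.3% of genes. The exact permutation p was 0.0667 for each, the smallest that 2 against 4 allows, and it was 0.2 at Prdm1 and 0.6 at Irf4.

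In host cells, 14 of 51 member regions (27.5%) had a peak in both host pTreg and neither host Tconv library, against 5.51% of all regions, and 3 (5.88%) had the opposite pattern, against 11.5%. Of the 14, 5 lay at Il1rl1, 3 at Klrg1, 2 at Areg and 1 each at Prdm1, Irf4, Il10 and Pparg. Host tTreg had 11 of 59 regions (18.6%) that host Tconv lacked, against 3.86% of all regions, and host Tconv had 4 (6.78%) that host tTreg lacked, against 15.2%. Host pTreg and host tTreg share the same host Tconv libraries in these comparisons.

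Between in vivo regulatory groups fewer member regions differed than between these and conventional groups. Host pTreg had 2 of 56 (3.57%) that host tTreg lacked, at Prdm1 and Il1rl1, against 3.35% of all regions, and host tTreg had 0 that host pTreg lacked, against 0.452%. Donor Treg had 0 of 50 that host pTreg lacked, against 2.09%. Host pTreg had 5 (10%) that donor Treg lacked, 1 each at Prdm1, Irf4, Il1rl1, Pparg and Klrg1, against 4.33%. The members' share was near that of all regions for host pTreg against host tTreg.

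Donor Treg and iTreg differed in both directions. Donor Treg had 15 of 56 regions (26.8%) that iTreg lacked, 5 at Klrg1, 4 at Il1rl1, 3 at Il10 and 1 each at Prdm1, Areg and Pparg, against 2.92% of all regions. In the opposite direction iTreg had 9 (16.1%) that donor Treg lacked, against 34.7% of all regions. These were 2 each at Prdm1, Il10 and Il1rl1 and 1 each at Irf4, Pparg and Klrg1. The peak lists of iTreg were the longest, and the part of list length in these counts was examined only by cutting all lists to equal length.

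**Figure D4:**
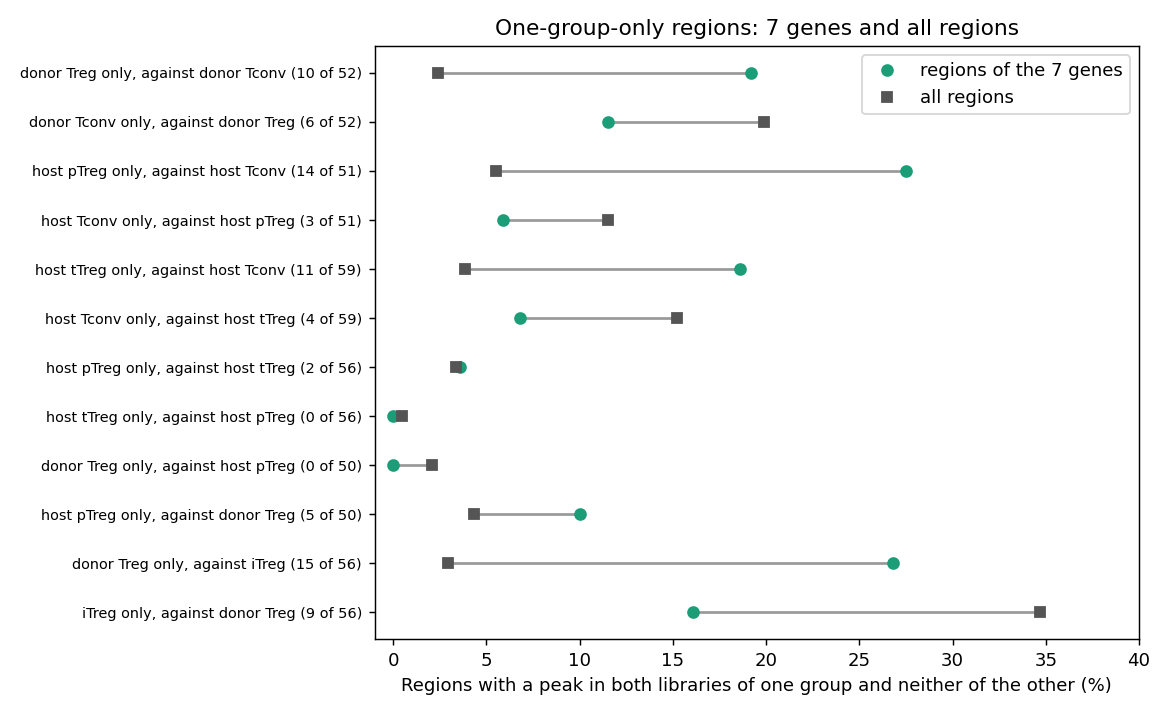
Percent of regions that had peaks in one group (2 of 2 libraries) and not in the other (0 of 2), for member regions (circles) and for all regions (squares), in each direction of the 6 comparisons, with the members' counts beside the names. Circles stand at 19.2% for donor Treg against donor Tconv and 27.5% for host pTreg against host Tconv, where squares stand at 2.41% and 5.51%.

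With iTreg left out, the Fisher's exact test over 17531 regions called 7 of 26 member regions higher in in vivo regulatory libraries, against 3.35% of all regions tested. They were the Il1rl1 regions at 20.7 and 22.5 kb, the Areg regions at -15.3 and -12.8 kb and the Klrg1 regions at 4.1, 13.1 and 23.4 kb. In the other direction 3 were called higher in conventional libraries, against 21.5% of all regions tested, at Prdm1 (6.7 kb), Irf4 (-15.9 kb) and Il10 (-13.6 kb). Each of the 10 had a peak in every library of one side and none of the other (Fisher's exact p = 0.00476, adjusted p = 0.0192). Leaving out each library in turn kept 7 to 9 calls in the first direction and 3 or 4 in the second.

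Patterns over all 12 libraries were counted after the values had been seen, and have no test. Among the members, 5 regions had a peak in all 6 in vivo regulatory libraries and none of the other 6, against 0.388% of all regions. Peaks in all 6 in vivo regulatory libraries and in neither iTreg library were found at 12, against 1.57%, with 5 at Klrg1, 3 at Il1rl1, 3 at Il10 and 1 at Areg. In contrast, 6 had one in both iTreg libraries and no in vivo regulatory library, against 26.1%, and 3 of these in iTreg alone, against 16.5%. All 12 libraries had a peak at 13, against 27.9%, with 5 at Prdm1, 4 at Irf4, 2 at Il10 and 1 each at Il1rl1 and Klrg1.

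Of 24 other genes of effector and tissue Tregs, 22 had a region, 219 in all, and Cxcr6 and Ebi3 had none. In the 8 against 4 comparison 55 of their regions could be tested and 6 were called higher in regulatory libraries, against 1.39% of all regions tested: 3 at Rora, a nuclear receptor of tissue Tregs, 2 at Dgat2, an enzyme of triglyceride synthesis, and 1 at Il1r2, a decoy receptor for IL-1. Higher in conventional libraries were 2, against 4.98% of all, at Ikzf3, the gene of the transcription factor Aiolos, and Il18r1, a chain of the IL-18 receptor. Il1r2 was covered over 2128 and 2270 bp in donor Treg, 2232 and 1973 bp in host pTreg, 2295 and 4155 bp in host tTreg and 4091 and 4874 bp in iTreg, against 955 and 793 bp in donor Tconv and 422 and 916 bp in host Tconv. Unlike at Il1rl1 and Klrg1, iTreg lay at the upper end there. Without iTreg 49 regions could be tested. Of these 10 were called higher in in vivo regulatory libraries, against 3.35% of all regions tested, 4 at Rora, 2 at Dgat2 and 1 each at Bhlhe40, Il1r2, Penk and Tigit, and 6 higher in conventional libraries, against 21.5%, 3 at Rora and 1 each at Ikzf3, Il18r1 and Tnfrsf9. In both iTreg libraries but no in vivo regulatory library were 32 of the 219, 18 of them at Rora, against 26.1% of all regions. The median difference in covered length, regulatory minus conventional, was 208 bp over the list and -65.9 bp over all genes.

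Il1rl1, Areg and Il10 are also used by mast cells and group 2 innate lymphoid cells, and Klrg1 by NK and CD8 T cells. Of 6 mast cell and ILC2 markers (Kit, Fcer1a, Ms4a2, Cpa3, Gata2, Il17rb), Fcer1a had no peak in any library and Ms4a2 none in the in vivo regulatory libraries. Their summed covered length was 2177 to 2840 bp in donor Treg, 1589 to 2206 bp in host pTreg, 1161 to 2531 bp in host tTreg and 9336 to 10973 bp in iTreg, against 4048 to 4457 bp in donor Tconv and 2374 to 4761 bp in host Tconv. Kit had a peak at 1 to 5 regions in in vivo regulatory libraries, 8 and 9 in iTreg and 2 to 5 in conventional ones. Cpa3 had 1 or 2 in every library. Gata2 and Il17rb had peaks in all iTreg and conventional libraries. Among in vivo regulatory libraries Gata2 had one in donor Treg 1 and host pTreg 1, and Il17rb in donor Treg 2. Of 6 CD8 T and NK markers (Cd8a, Cd8b1, Klrb1c, Ncr1, Eomes, Klrd1), Cd8a had no peak in the in vivo regulatory libraries. Their sum was 5222 to 5316 bp in donor Treg, 4248 to 6257 bp in host pTreg, 2738 to 4588 bp in host tTreg and 8798 to 10205 bp in iTreg, against 8614 to 9821 bp in donor Tconv and 6977 to 9758 bp in host Tconv. By number of regions with a peak, Klrb1c went the other way, with 4 to 6 in in vivo regulatory libraries and 4 in each other library. Cd8b1 had 0 or 1 in in vivo regulatory libraries against 3 to 6 in the others. Eomes had 1 to 4 against 3 to 6, and Ncr1 and Klrd1 at most 1 in any library. The sums of the mast cell and ILC2, B, plasma cell and myeloid lists were higher in both iTreg libraries than in all others. That of the CD8 T and NK list overlapped between iTreg and conventional libraries. Cd79a and Csf1r, markers of B and myeloid cells, had no peak in any library. The part of any of these cells in the members' peaks was not tested.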

How the data were processed

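ATAC-seq peak lists of 12 libraries, 2 in each of 6 groups, were used. The tools named for mm10, per the submitters' processing notes, are Bowtie2 2.3.3, HOMER 4.10 and bedtools. The sources used here do not give their roles or settings, nor any shift of reads for the transposase. Each list deposited by the authors has 5 columns with a score of 1000 for every peak, so the score carried no information and was not used. The lists' names speak of an intersection, of what is not given. Coordinates of the 496365 peaks are the measurement, counted here from 1; no read depth is known, so no interval for counting error is given.

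Peaks sharing at least 1 bp were merged and assigned to 21900 protein-coding RefSeq genes of GRCm38.p6 (body, else nearest end within 50 kb), which placed 69140 regions. Exons and introns were not analysed here. Presence per region was compared by Fisher's exact test (two-sided) and covered length by a two-sided exact permutation test per gene over all libraries. Both were adjusted by Benjamini-Hochberg over all regions where an unadjusted p under 0.05 was possible, or all genes with a region, at 0.05, and were tested on simulated data. Groups of 2 libraries were described by counts. Alternatives were a peak cover of 50%, equal list lengths (the 28394 widest peaks), assignment up to 10 kb, a replicate block, no iTreg, each library left out, a library's share of covered base pairs, the number of regions, and adjustment over all regions. Libraries are numbered as in the sample titles; the descriptions number some groups otherwise, which bears on the replicate block and on the next check. Title numbers did not pair the samples: over 15 pairs of groups the correlation of replicate deviations was -0.195 to 0.108.

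The 7 genes, the related genes and the marker lists were chosen with earlier results of these data known. Regions described singly were those called, those in one group only in any of the 6 comparisons, those within 1 kb of a gene end and the widest per gene; some others are added, chosen after their values were seen. Python 3.11.15, numpy 2.4.6, scipy 1.17.1 and matplotlib 3.10.9 were used.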

Additional observations from a re-analysis of the deposited data

Results flagged for a closer look

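At 2 regions donor Treg lay below donor Tconv and host pTreg above host Tconv, without overlap between the libraries of each contrast. The difference itself was not tested, and the share of all regions with this pattern is not given here. The 2 donor groups share a run code, while host pTreg and host Tconv do not. At the Il1rl1 region at -18.5 kb (chr1:40386118-40386660) covered length was 0 bp in both donor Treg libraries, against 376 and 306 bp in donor Tconv, a difference of means of -341 bp. In host pTreg it was 519 and 410 bp, against 150 and 309 bp in host Tconv, a difference of 235 bp. At the Klrg1 region at -11.4 kb (chr6:122258873-122259432) it was 0 bp in both donor Treg libraries, against 150 bp in both donor Tconv libraries, a difference of -150 bp. In host pTreg it was 505 and 533 bp, against 0 and 238 bp in host Tconv, a difference of 400 bp. Host tTreg lacked the Il1rl1 region and so lay below host Tconv there, as donor Treg lay below donor Tconv. At the Klrg1 region host tTreg had 193 and 230 bp, within the range of host Tconv.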

How the results depend on the processing

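Depth is unknown, and peak width was the only stand-in for strength. With 8 against 4 libraries the Fisher calls rest on the smallest p the design gives.

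Counts in one group only are given here without the shares of all regions at these settings. In the order of the report, these counts moved as follows. With 50% cover host pTreg only against host Tconv was 22 and against host tTreg 4. With equal list lengths donor Tconv only against donor Treg was 2, host pTreg only and host Tconv only in their comparison 22 and 1, host tTreg only and host Tconv only 18 and 1, host pTreg only against host tTreg 1 and against donor Treg 3, and iTreg only 3. With assignment up to 10 kb, which left 45 regions, the counts were donor Treg only 6 and donor Tconv only 2, host pTreg only 8 and host Tconv only 1, host tTreg only 7 and host Tconv only 1, host pTreg only against host tTreg 0 and against donor Treg 3. Leaving out each library gave donor Treg only 10 to 14 and donor Tconv only 6 to 8, host pTreg only 15 to 23 and host Tconv only 3 to 4, host tTreg only 11 to 25 and host Tconv only 4 to 5, host pTreg only 2 to 8 and host tTreg only 1 to 8 against each other, donor Treg only 0 to 2 and host pTreg only 5 to 8 against each other, and donor Treg only 15 to 19 and iTreg only 9 to 13.

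Fisher calls over all regions, 263 higher in regulatory and 941 higher in conventional libraries, were 587 and 3770 without iTreg, 160 higher in regulatory libraries with 50% cover, and 0 in each direction when adjusted over all merged regions. Under the replicate block they were 0 in each direction, for all regions and members. The members' calls, 1 and 1, were 7 and 3 without iTreg; the Areg call was lost with 50% cover (0) and the Irf4 call with equal list lengths (0). Leaving out each library gave 0 to 283 and 0 to 1520 calls over all regions and 0 to 2 and 0 to 1 over members. Genes called by covered length, 0 in each direction and 0 without each library, were 188 and 5352 without iTreg and 298 and 547 as a share of each library's covered base pairs.

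The alternatives on the comparison without iTreg, and the count of regions in in vivo regulatory libraries alone, were added after seeing the data. There the replicate block kept 7 and 3 region calls and 4 gene calls. Without iTreg and with equal list lengths the members' Fisher calls were 13 and 1, and 12 regions were in all 6 in vivo regulatory libraries alone. The shares of all regions at this setting are not given here. The cut to 28394 peaks was made from 37050 to 47193 peaks in conventional and 28394 to 37934 in in vivo regulatory libraries. The part of this cut in the members' counts was not tested. Leaving out each library gave 5 to 7 regions in in vivo regulatory libraries alone, 7 to 9 and 3 to 4 Fisher calls, and 0 to 3 gene calls higher in in vivo regulatory libraries. The sign of the covered length difference turned for Prdm1 as a share (2.34 bp per Mb covered) and by number of regions (0.75), for Irf4 without iTreg (-656 bp), by number of regions (-0.125), without iTreg replicate 2 (-130.2 bp) and without host Tconv replicate 1 (-90.8 bp; up to 869 bp without others), and for Il10 by number of regions (-0.625). The causes were not tested.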
